A study of Rattus norvegicus with 9 samples.

Results

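Respiratory complex I, NADH:ubiquinone oxidoreductase, was examined at the transcript level in rat femur. Its members were the rows of the deposited expression table whose symbol begins with Nduf followed by a, b, c, s or v and a digit, or with Mt-nd and a digit. Assembly factors were left out, the row of highest mean level stood for a symbol with several rows, and a mean of at least 1 FPKM (a level scaled for transcript length and library depth) over the 9 libraries was required. The rule found 46 rows with 44 symbols, of which 43 passed the level filter, 36 encoded in the nucleus and 7 in mitochondrial DNA, among 32623 rows in the table and 13886 that passed the same filter. The member that fell below it was the row named Ndufs6, a processed pseudogene with a mean of 0.333 FPKM.

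The study sequenced poly(A) RNA from femur in 9 libraries, 3 from normal SD rats (control, coded BC), 3 from ovariectomized rats (coded MC) and 3 from rats given Desertliving Cistanche, a herb (treated, coded PGC). All rats carried a wild-type genotype. The series title places the herb treatment in ovariectomized rats, so the treated and control groups differ in both the operation and the herb, while the treated and ovariectomized groups differ in the herb. The sources used here give no age, dose or duration. Nothing in the labels ties each library to an animal of its own, so every p-value measures only the spread between these samples, which may be technical.

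Complex I takes electrons from NADH, passes them along a chain of iron-sulfur clusters to ubiquinone, and uses the energy to pump protons across the inner mitochondrial membrane. The mitochondrial genome encodes the hydrophobic core of its membrane arm, and nuclear genes encode the core of the peripheral arm together with the supernumerary subunits that surround both. The enzyme is assembled from modules: the N module oxidises NADH, the Q module reduces ubiquinone, and the proximal and distal parts of the membrane arm hold the proton pumps. Mitochondrial transcripts are made as long polycistronic RNAs and cut apart, so their levels depend on processing and decay as well as on transcription, and tissues rich in mitochondria, such as skeletal muscle, hold many of them.

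Libraries held 54992823 to 66531156 counts. The femur label matched the data in that all 9 osteoblast markers and all 11 erythroid markers with a row were detected in every library; the osteoblast markers summed to between 2542 and 9078 CPM (counts scaled to a common library size with edgeR's TMM factors). Of 18 listed skeletal muscle markers 14 had a row. None was at 0 in any library, and they summed to 482 to 1436 CPM in controls, 1610 to 7176 CPM in ovariectomized rats and 1147 to 2368 CPM in treated rats. In bulk tissue, fewer cells of a type and less RNA per cell cannot be told apart.

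The mitochondrially encoded subunits were far more abundant per length than the nuclear ones. Their median level over all libraries was 1179 FPKM, from 488 for Mt-nd6 to 2555 for Mt-nd2, against a median of 54.1 FPKM for the nuclear members, a ratio of 21.8. The order was Mt-nd2 (2555 FPKM), Mt-nd1 (2333), Mt-nd4 (1607), Mt-nd4l (1179), Mt-nd3 (951), Mt-nd5 (590) and Mt-nd6 (488), and it was the same in all 9 libraries. Of the 6 gaps between neighbours in this order, 5 exceeded the larger of the neighbours' SDs over the libraries, and the gap between Mt-nd2 and Mt-nd1 did not. Mt-nd4l and Mt-nd4 overlap by 7 bases on the same strand, and Mt-nd5 and Mt-nd6 overlap by 23 bases on opposite strands. The sources used here do not say whether counting used strand, so reads in these overlaps cannot be assigned with certainty. Mt-nd6 is the only one of these members on the minus strand. If strand was not used, its count could include reads of the opposite strand along its whole length.

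Nuclear members lay in a narrow range, 34 of the 36 falling between 26.4 and 131 FPKM. Ndufa11, a supernumerary subunit of the membrane arm, was the most abundant. Its level was 122, 134 and 131 FPKM in controls, 132, 139 and 150 in ovariectomized rats and 128, 117 and 124 in treated rats. Among the members that are structural subunits, the lowest was Ndufc1 at 20.0 FPKM. Among the 35 gaps between nuclear neighbours in the order of levels, 30 did not exceed the larger of the neighbours' SDs, so most of that order is not resolved. The members outside the narrow range were Ndufc1 and Ndufa4l2.

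**Figure D1:**
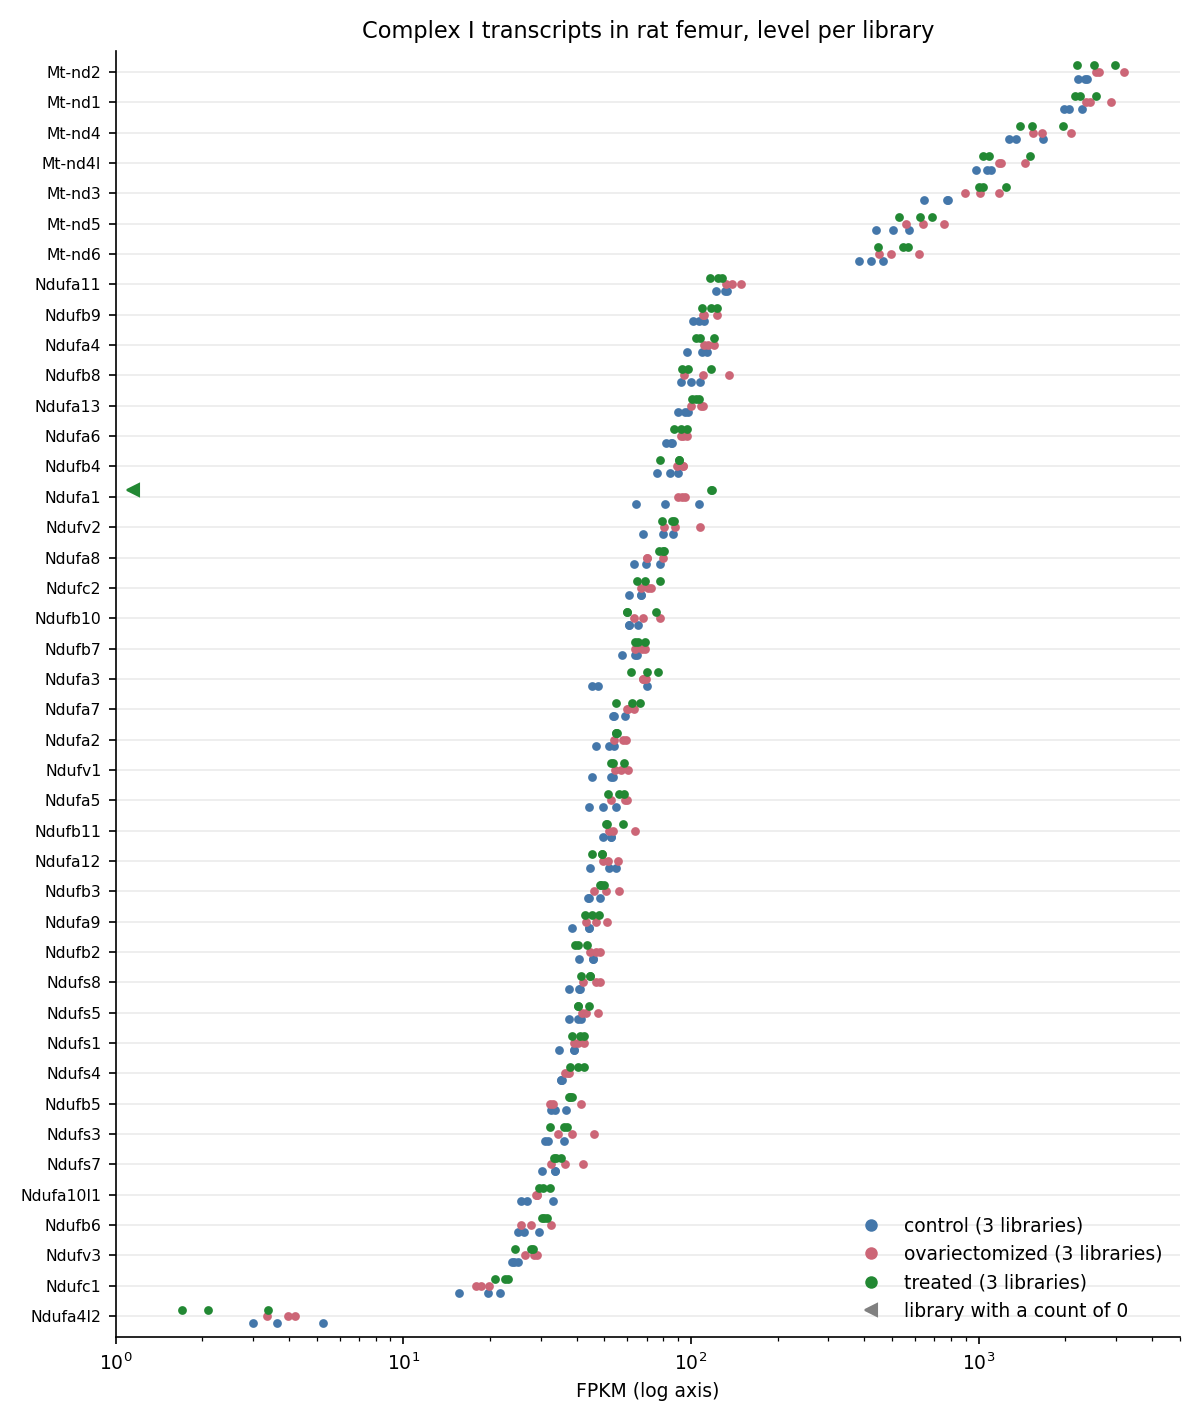
Level of the complex I members described here in each library, in FPKM on a log axis, with 1 point per library coloured by group and genes ordered by mean level. The 7 mitochondrially encoded transcripts sit at the top, with means from 488 to 2555 FPKM, and the triangle marks the library in which the Ndufa1 row has a count of 0.

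The nuclear core subunits, which carry the flavin and the iron-sulfur clusters, had a median of 43.0 FPKM. In the N module, Ndufv1, which binds NADH and the flavin, ranged from 45.4 to 53.6 FPKM in controls, 54.2 to 60.4 in ovariectomized rats and 52.5 to 58.6 in treated rats. Its iron-sulfur partner Ndufv2 was higher, at 68.0 to 86.3 FPKM in controls, 80.3 to 107 in ovariectomized rats and 79.5 to 87.5 in treated rats. Ndufs1, which holds most of the clusters of this module, stayed between 34.6 and 42.3 FPKM in all 9 libraries. The ovariectomized libraries lay just above the controls for Ndufv1 and Ndufs1 in FPKM but overlapped them in CPM, and for Ndufv2 they overlapped on both scales.

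In the Q module, Ndufs3, a core subunit of the peripheral arm, was at 31.2 to 36.2 FPKM in controls, 34.5 to 45.9 in ovariectomized rats and 32.2 to 37.1 in treated rats. Ndufs7, at 30.2 to 42.1 FPKM, and Ndufs8, at 37.7 to 48.4 FPKM, carry iron-sulfur clusters of the Q module and had their highest values in ovariectomized libraries. Ovariectomized replicate 3 gave the highest value of Ndufs3 and Ndufs7.

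Both members that are named for complex I but placed elsewhere were expressed at very different levels. Ndufa4, now assigned to cytochrome c oxidase, was at 96.9 to 113 FPKM in controls, 111 to 120 in ovariectomized rats and 104 to 120 in treated rats. Its paralogue Ndufa4l2, a gene known for induction under low oxygen, was the lowest member. It was at 3.01, 3.64 and 5.24 FPKM in controls, 3.36, 4.21 and 3.97 in ovariectomized rats and 3.39, 2.08 and 1.70 in treated rats. Treated replicates 2 and 3 were the lowest libraries for this gene, whereas treated replicate 1 lay within the control range.

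The stretch before the transcription start of the nuclear members was inspected for letters that the textbook factors of respiratory genes recognise. Any link of these letters to level was not tested. RefSeq windows of the GRCr8 build, from 250 bases before to 50 after the start, were matched by symbol or Ensembl identifier for 32 of the 36 nuclear members (those without a window included Ndufa10l1, Ndufa8 and Ndufb9). The NRF1 letters, GCGCA and GCGC separated by 1 base of any kind, occurred on either strand in 6 of the 32 windows (18.8%), against 4.25% of all 33469 windows in the table, which include genes of every type. The full palindrome, with GCGCAT followed at once by GCGC and so a subset of those matches, was in 1 window against 0.852% of all. The ETS letters CCGGAAG were in 7 windows (21.9% against 8.75%), and the YY1 letters AAGATGGC in 8 (25% against 3.17%), all 8 at or just after the start. At least 1 of these motifs was in 19 of the 32 windows (59.4%) and in 14.6% of all windows. A match describes the letters in the window and is not evidence of binding.

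For 5 of the 6 genes the NRF1 letters lie upstream of the start, and these stretches are shown. Ndufa11 and Ndufa12 were lower in every treated than in every ovariectomized library, but these groups overlapped for Ndufa5, Ndufs5 and Ndufv3. Ndufa2, Ndufa4l2 and Ndufb2, also wholly lower in CPM, had no match, and in Ndufb4 it lay after the start. The shown stretches lie at chr9:1637487-1637562 (plus strand) for Ndufa11, chr7:30658174-30658243 (plus) for Ndufa12, chr4:53971236-53971297 (minus) for Ndufa5, chr5:141264492-141264561 (minus) for Ndufs5 and chr20:9613717-9613785 (plus) for Ndufv3, in GRCr8. Each is written in the direction of the gene, with the matching letters in capitals.
Ndufa11: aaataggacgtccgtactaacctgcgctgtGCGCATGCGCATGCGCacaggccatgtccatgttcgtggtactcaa
Ndufa12: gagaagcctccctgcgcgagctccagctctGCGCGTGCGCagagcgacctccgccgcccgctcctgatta
Ndufa5: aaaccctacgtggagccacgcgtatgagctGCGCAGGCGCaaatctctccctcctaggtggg
Ndufs5: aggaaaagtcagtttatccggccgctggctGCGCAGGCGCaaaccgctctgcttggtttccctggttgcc
Ndufv3: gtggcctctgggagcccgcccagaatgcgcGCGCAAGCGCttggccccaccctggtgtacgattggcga
The Ndufa11 stretch alone holds overlapping copies, together 16 bases long and beginning 97 bases before the start. In the others the letters begin 112 (Ndufa12), 32 (Ndufa5), 129 (Ndufs5) and 39 (Ndufv3) bases before it. In Ndufa12 the match is on the strand opposite to the gene.

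Ovariectomized rats were first set against controls, to see how complex I transcripts differed after removal of the ovaries. Estimates were higher for all 7 mitochondrially encoded subunits, whose log2 fold changes had a median of 0.26 (range 0.23 to 0.44), and for 33 of the 36 nuclear members, with a median of 0.10 (range -0.079 to 0.29). The lowest nuclear estimate was that of Ndufa4l2, which is placed elsewhere. Over all 13886 genes tested the median was -0.0037, with 48.7% of estimates above 0 and 51.3% below. No member passed an adjusted p of 0.05 in edgeR's quasi-likelihood test (0% of all genes did). None passed with DESeq2 (0.426% of the 13839 genes it gave an adjusted p did). At an unadjusted p under 0.05, edgeR counted 3 mitochondrially encoded members and 1 nuclear member, all 4 with higher estimates, against 5.05% of all genes (3.33% higher and 1.72% lower).

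In edgeR's CPM, the ovariectomized libraries lay wholly above the controls for 4 of the 7 mitochondrially encoded members (Mt-nd1, Mt-nd2, Mt-nd3 and Mt-nd4l) and for 4 of the 36 nuclear ones (Ndufa6, Ndufb4 and Ndufv3 among them), compared with 5.02% of all genes. No member lay wholly below the controls, as 3.92% of all genes did. In FPKM the same 4 mitochondrially encoded and 11 nuclear members lay wholly above the controls and none below, compared with 7.60% and 2.05% of all genes.

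Mt-nd3 (ENSRNOG00000033615, bases 9451 to 9798 of the mitochondrial genome in the table, which names no build), a small subunit at the junction of the peripheral and membrane arms, had the largest estimate. It was at 294, 248 and 280 CPM in controls and 326, 368 and 421 CPM in ovariectomized rats, without overlap. The log2 fold change was 0.44 ± 0.12 (SE), with an edgeR adjusted p of 0.892 and a DESeq2 adjusted p of 0.105.

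Mt-nd5, a proton-pumping subunit of the distal arm, was at 1000, 893 and 1080 CPM in controls and 1072, 1233 and 1421 CPM in ovariectomized rats (0.33 ± 0.13, edgeR adjusted p = 0.974). The lowest ovariectomized library fell just below the highest control. Mt-nd1, which lines the ubiquinone channel, was at 2145, 2098 and 2249 CPM in controls and 2448, 2368 and 2821 CPM in ovariectomized rats (0.23 ± 0.10, edgeR adjusted p = 0.974), without overlap. The other mitochondrially encoded members, Mt-nd2, Mt-nd4, Mt-nd4l and Mt-nd6, had log2 fold changes of 0.23 ± 0.13, 0.26 ± 0.16, 0.24 ± 0.14 and 0.26 ± 0.13, with edgeR adjusted p from 0.974 to 0.9998.

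Ndufs3 and Ndufa13 were among the 3 nuclear members with the smallest unadjusted p. Ndufs3 had 0.22 ± 0.10 (edgeR adjusted p = 0.974), with 36.1, 37.6 and 39.7 CPM in controls and 38.5, 43.1 and 50.3 CPM in ovariectomized rats. Ndufa13, also known as GRIM-19, had 0.13 ± 0.061 (edgeR adjusted p = 0.974). The groups overlapped for Ndufs3 and Ndufa13.

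By module, the medians of the log2 fold changes were 0.15 in the Q module (8 of 8 with higher estimates), 0.12 in the N module (7 of 7), 0.073 in the nuclear distal arm (10 of 10) and 0.075 in the nuclear proximal arm (7 of 9). The 7 nuclear core subunits had a median of 0.15 and the 27 supernumerary ones 0.095. Other mitochondrially encoded mRNAs, those of cytochrome b, cytochrome c oxidase and ATP synthase, had higher estimates in 6 of 6 with a median of 0.14, and none was at an unadjusted p under 0.05 in edgeR. With DESeq2 Mt-co3, a subunit of cytochrome c oxidase, was (unadjusted p of 0.0441, adjusted p of 0.739). Of 15 complex I assembly factors 13 had higher estimates (median 0.11). The only one at an unadjusted p under 0.05 was Ecsit, at 0.36 ± 0.12 with an edgeR adjusted p of 0.901. Genes for mitochondrial transcription, RNA processing and biogenesis control had higher estimates in 9 of 24, with a median of -0.014. Of these, 3 were at an unadjusted p under 0.05, 2 with higher estimates and 1 with a lower one. Esrra, an orphan nuclear receptor known to act on respiratory genes, had 0.28 ± 0.083 (edgeR adjusted p = 0.892, DESeq2 adjusted p = 0.216), and Tefm, an elongation factor of mitochondrial transcription, had 0.49 ± 0.21 (edgeR adjusted p = 0.974). Pprc1, a coactivator of the PGC-1 family, had -0.22 ± 0.083 (edgeR adjusted p = 0.941), wholly below the controls.

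**Figure D2:**
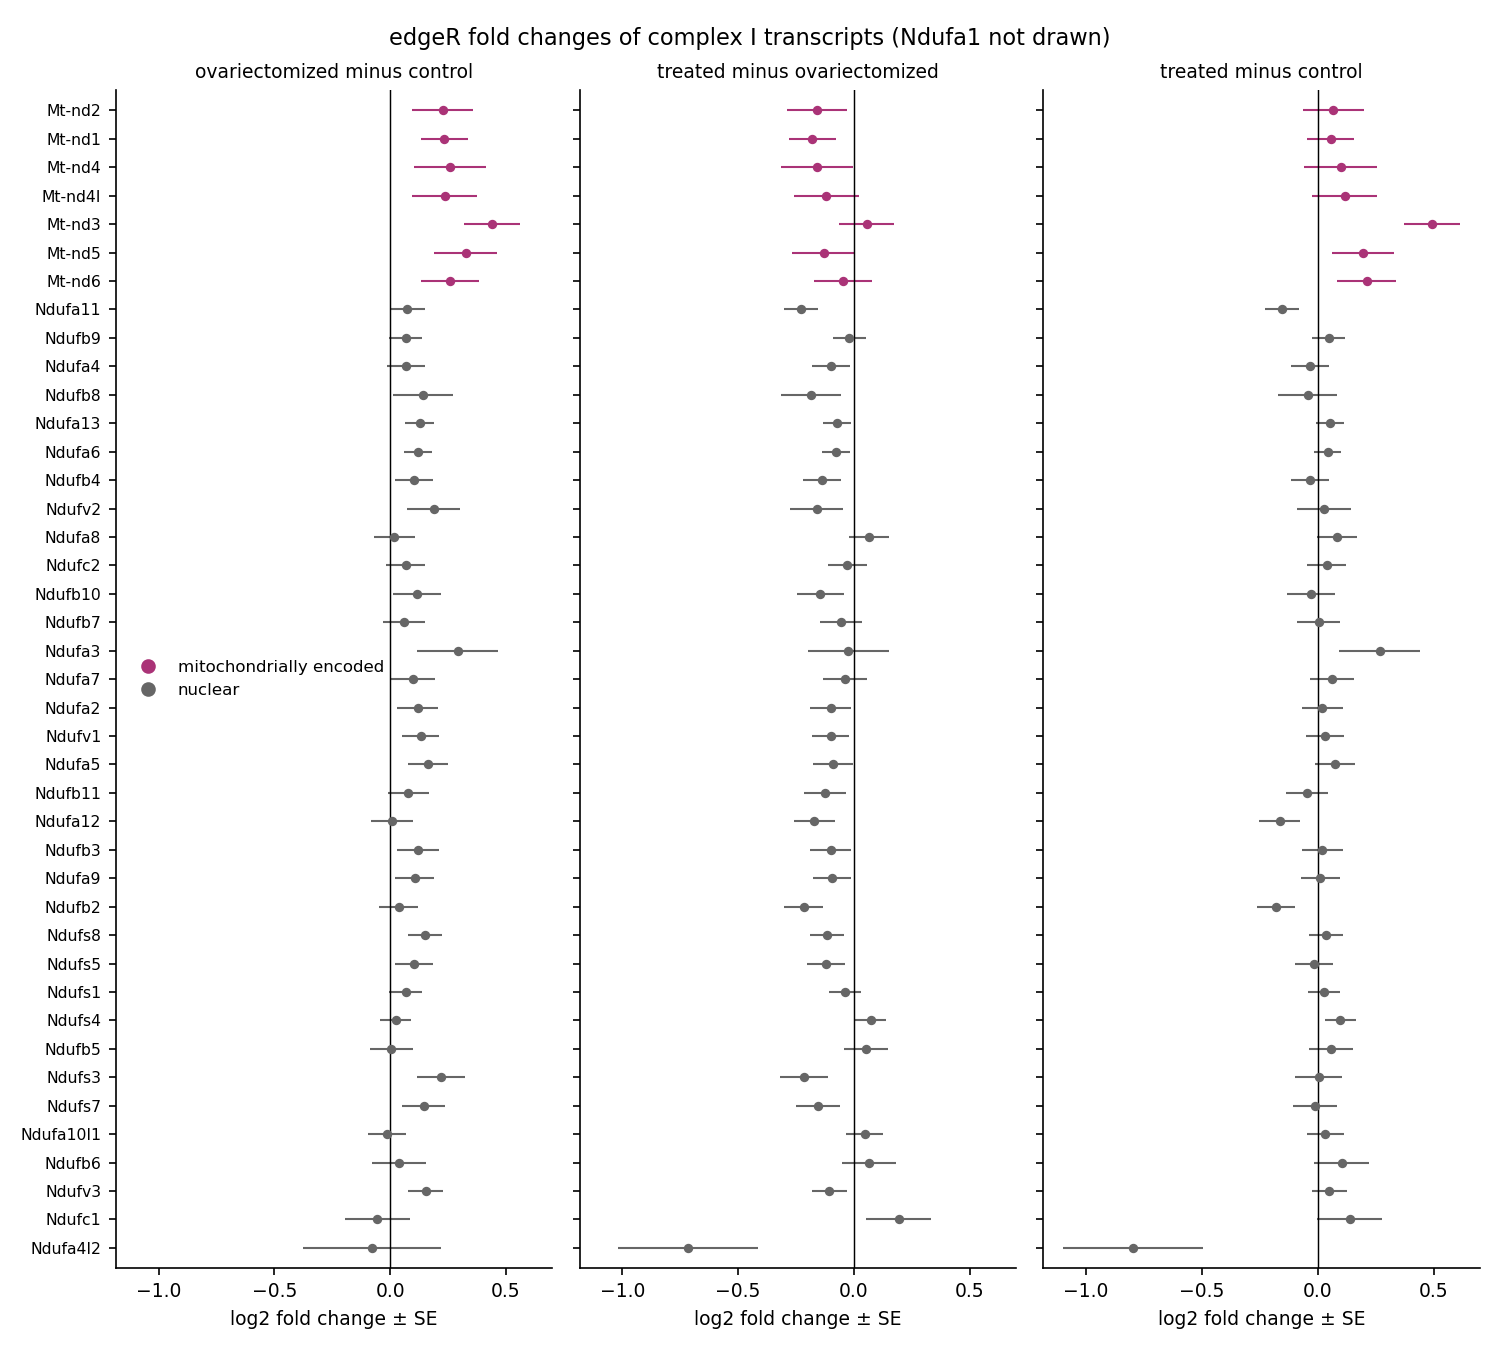
Log2 fold change with its standard error for complex I members in the 3 comparisons, from edgeR, with nuclear members in grey and mitochondrially encoded ones in purple. Mitochondrially encoded members have medians of 0.26, -0.13 and 0.12 from left to right and nuclear members 0.10, -0.10 and 0.027, and Ndufa1 is not drawn because 1 library has a count of 0.

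These differences moved with 1 library. Without ovariectomized replicate 3 the medians were 0.14 for the mitochondrially encoded and 0.053 for the nuclear members. That library also had the highest skeletal muscle score (mean log2 CPM of the 14 markers relative to the 9 libraries), 1.88, and control replicate 1 the lowest, -1.80. In ovariectomized rats all 14 muscle markers had higher estimates, and the median of their log2 fold changes was 1.76. With the muscle score as a covariate, the median was 0.051 for the mitochondrially encoded members and 0.00025 for the nuclear members. The score was -1.80, -0.56 and -0.22 in controls and -0.15, 1.06 and 1.88 in ovariectomized rats, without overlap. Muscle content and the operation therefore cannot be told apart by this fit. No marker passed edgeR's adjusted threshold, while DESeq2 called 3 of the muscle markers. Among other cells of a femur, the median log2 fold change was 1.19 for 10 adipocyte markers, of which DESeq2 called 2, and -1.87 for 8 chondrocyte, -0.38 for 9 osteoblast, -0.15 for 11 erythroid, 0.24 for 8 B lymphocyte, -0.21 for 7 macrophage and osteoclast and 0.012 for 9 neutrophil markers, of which DESeq2 called 0. Their part in the complex I differences was not tested.

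Per library, the median log2 CPM difference of the 7 mitochondrially encoded members from their 9-library mean was -0.15, -0.23 and -0.068 in controls, -0.037, 0.046 and 0.32 in ovariectomized rats and -0.13, -0.10 and 0.18 in treated rats. For the 36 nuclear members the same measure was -0.048, 0.00040 and -0.040 in controls, 0.013, 0.051 and 0.13 in ovariectomized rats and -0.011, -0.035 and 0.0092 in treated rats. Ovariectomized replicate 3 was the highest library on both measures, and treated replicate 3 was the second highest for the mitochondrially encoded members. In treated replicate 3 the muscle score was 0.36, the highest of its group.

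**Figure D3:**
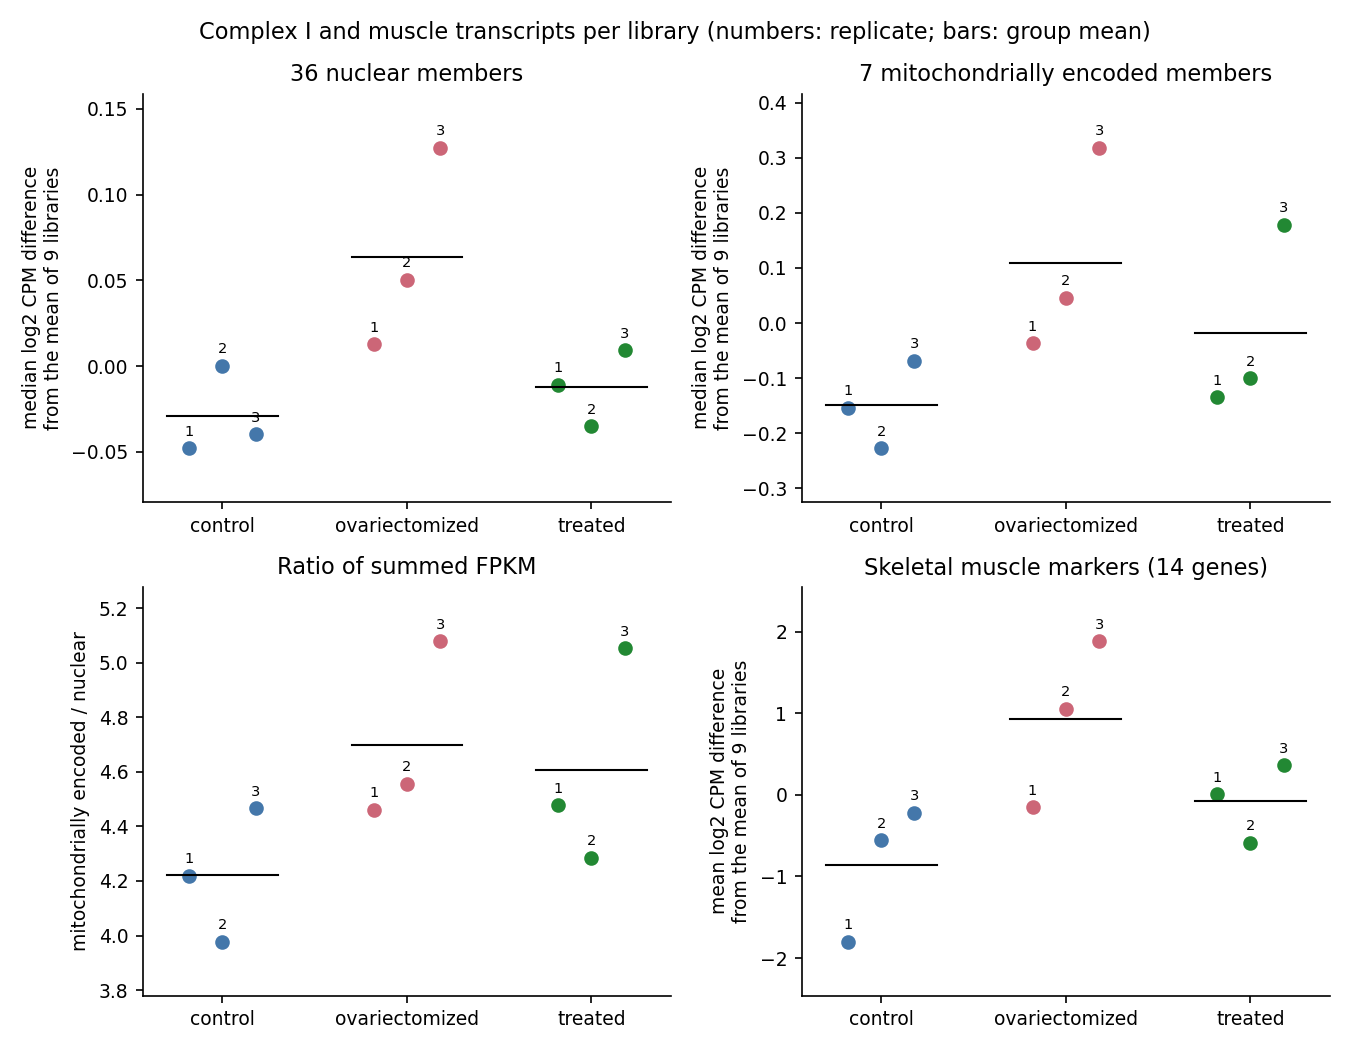
Per-library values for the nuclear members, the mitochondrially encoded members, the ratio of their summed FPKM and the skeletal muscle marker score, with 1 point per library numbered by replicate and a bar for each group mean. Ovariectomized replicate 3 is highest in all 4 panels, with a muscle score of 1.88 and a ratio of 5.08.

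The comparison of treated with ovariectomized rats asks what accompanied the herb. The estimates mostly had the opposite sign. Estimates were lower for 30 of the 36 nuclear members, whose log2 fold changes had a median of -0.10 (range -0.72 to 0.19), and for 6 of the 7 mitochondrially encoded ones, with a median of -0.13 (range -0.18 to 0.054). Over all genes tested the median was -0.0042, with 51.0% of estimates below 0 and 49.0% above. This comparison shares the ovariectomized libraries with the previous one, so opposite signs between them are not separate evidence. No member passed an adjusted p of 0.05 in edgeR (0% of all genes) or DESeq2 (0.292% of the 13036 genes it gave an adjusted p). At an unadjusted p under 0.05 edgeR gave 3 nuclear and 0 mitochondrially encoded members, all 3 with lower estimates, against 5.20% of all genes (2.12% higher and 3.08% lower). Ndufa4l2, which is placed elsewhere, was 1 of these 3 members and set the lower end of the nuclear range.

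In CPM, every treated library of 6 nuclear members lay below every ovariectomized one (Ndufa11, Ndufa12, Ndufa2, Ndufa4l2, Ndufb2 and Ndufb4), compared with 6.63% of all genes. The reverse held for Ndufc1 alone, compared with 5.75% of all genes. In FPKM 3 nuclear members lay wholly lower (Ndufa11, Ndufa12 and Ndufb2) and 3 wholly higher (Ndufa10l1, Ndufc1 and Ndufs4), compared with 14.0% of all genes in either direction and 3.93% wholly lower. No mitochondrially encoded member was free of overlap on either scale.

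Ndufa11 was at 80.0, 83.9 and 88.7 CPM in ovariectomized rats and 76.0, 67.9 and 71.5 CPM in treated rats, a log2 fold change of -0.23 ± 0.074 with an edgeR adjusted p of 0.929. Ndufb2, a supernumerary subunit of the distal arm, was at 21.3, 23.1 and 21.8 CPM and then 18.6, 20.0 and 18.5 CPM (-0.22 ± 0.083, edgeR adjusted p = 0.929). For both genes the treated values lay below the controls as well in CPM, though not in FPKM. The controls were 76.5, 85.5 and 77.9 CPM for Ndufa11 and 20.3, 23.0 and 21.3 CPM for Ndufb2. Ndufa4l2 was at 3.34, 4.17 and 3.86 CPM in ovariectomized rats and 3.30, 2.001 and 1.61 CPM in treated rats (-0.72 ± 0.30, edgeR adjusted p = 0.929).

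Among the mitochondrially encoded members, Mt-nd1, Mt-nd2 and Mt-nd4 had the lowest estimates, -0.18 ± 0.10, -0.16 ± 0.13 and -0.16 ± 0.16, with edgeR adjusted p from 0.945 to 0.955. Mt-nd5 had -0.13 ± 0.13, Mt-nd4l -0.12 ± 0.14 and Mt-nd6 -0.047 ± 0.13. Rescaling to TPM (FPKM rescaled so that every library has the same sum) turned the Mt-nd6 estimate to 0.022. Mt-nd3 alone had a higher estimate, 0.054 ± 0.12 (edgeR adjusted p = 0.975), with 360, 364 and 433 CPM in treated rats.

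By module, the medians were -0.10 in both the N and the Q module, -0.11 in the nuclear distal arm and -0.029 in the nuclear proximal arm. All 8 Q module members and all 7 nuclear core subunits had lower estimates, the core with a median of -0.12. The other mitochondrially encoded mRNAs had lower estimates in 6 of 6 (median -0.12), and 10 of 15 assembly factors did (median -0.11). Timmdc1, a membrane-bound assembly factor, had -0.40 ± 0.12 with an edgeR adjusted p of 0.929 and no overlap between groups. Control genes of mitochondrial expression had lower estimates in 15 of 24, with a median of -0.017.

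The skeletal muscle markers had lower estimates in 14 of 14, with a median of -1.17. Estimates were lower for 11 of 11 erythroid markers (median -0.32) and higher for 9 of 9 neutrophil (0.30) and 8 of 8 chondrocyte markers (0.76), and the medians were 0.016 for adipocyte, -0.073 for osteoblast, -0.20 for B lymphocyte and -0.030 for macrophage and osteoclast markers. Neither edgeR nor DESeq2 called a marker at an adjusted p of 0.05. Beyond a fit with the muscle score, the part of these cells in the complex I differences was not tested. With the muscle score as a covariate, the median was -0.066 for the nuclear and 0.018 for the mitochondrially encoded members. Without ovariectomized replicate 3 the nuclear median was -0.061 and the mitochondrial one -0.027. The mitochondrial median was also -0.20 without ovariectomized replicate 1, and -0.044, -0.084 and -0.24 without treated replicates 1, 2 and 3.

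The comparison of treated with control rats spans the operation and the herb together, and it shares libraries with both others. For nuclear members the median of the log2 fold changes was 0.027 (range -0.80 to 0.27) and 24 of 36 estimates were higher, when 50.0% of all genes had an estimate above 0. Estimates were higher for all 7 mitochondrially encoded members, with a median of 0.12 (range 0.055 to 0.49), but that median was -0.0073 without treated replicate 3 and -0.0048 with the muscle score as a covariate. In edgeR no member passed an adjusted p of 0.05 (0% of all genes), and 2 were at an unadjusted p under 0.05, 1 higher and 1 lower, against 8.81% of all genes (4.05% higher and 4.75% lower). The lower one was Ndufa4l2, which is placed elsewhere and also set the lower end of the nuclear range. In DESeq2, 1 member passed an adjusted p of 0.05, compared with 1.11% of the 13839 genes it gave an adjusted p.

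The member called by DESeq2 was Mt-nd3, with a log2 fold change of 0.49 ± 0.12, an edgeR adjusted p of 0.469 and a DESeq2 adjusted p of 0.0237. The treated libraries, at 360, 364 and 433 CPM, all lay above the controls, at 248 to 294 CPM. Its estimate stayed between 0.27 and 0.67 over every alternative in the comparisons of either group with controls, the muscle covariate included. In the other mitochondrially encoded members the log2 fold change of treated against control rats was 0.055 ± 0.10 for Mt-nd1, 0.067 ± 0.13 for Mt-nd2, 0.099 ± 0.16 for Mt-nd4 and 0.12 ± 0.14 for Mt-nd4l. It was 0.19 ± 0.13 for Mt-nd5 and 0.21 ± 0.13 for Mt-nd6, and edgeR's adjusted p ran from 0.669 to 0.906 for these 6.

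As a share of all counts on the 7 mitochondrially encoded members, which does not depend on library scaling, Mt-nd3 was at 3.45%, 2.94% and 3.07% in controls. It was at 3.42%, 3.75% and 3.56% in ovariectomized rats and 4.08%, 4.21% and 4.07% in treated rats. The treated libraries lay above all 6 others, while the ovariectomized and control libraries overlapped. Means were 3.15% ± 0.267, 3.58% ± 0.169 and 4.12% ± 0.0765 (SD, n = 3). The largest share belonged to Mt-nd2, whose means were 29.7% ± 1.95, 29.1% ± 0.760 and 28.8% ± 2.02 in the same order, with overlapping groups. The share of Mt-nd3 was singled out after its values were seen and is given without a test.

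**Figure D4:**
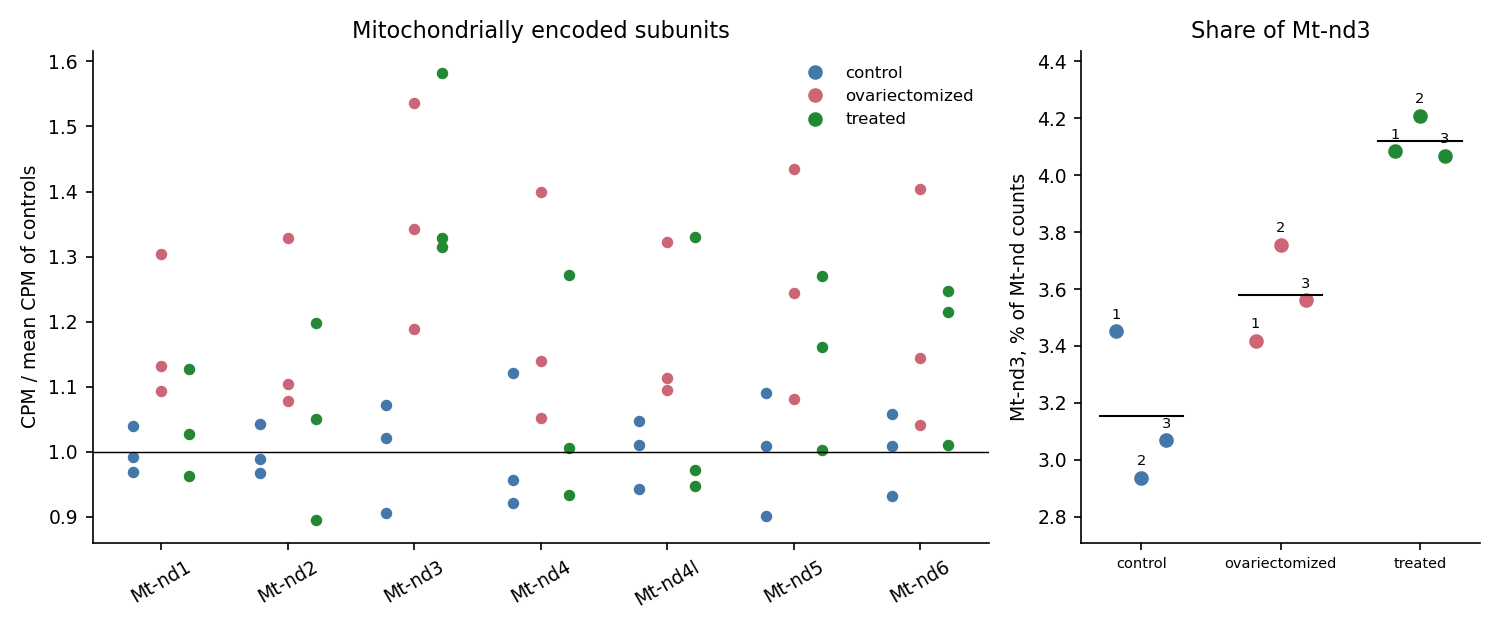
Left, CPM of each mitochondrially encoded subunit in each library divided by the mean of the controls; right, Mt-nd3 counts as a percentage of all counts on the 7 subunits, with replicate numbers and group means. The treated libraries hold 4.07% to 4.21% Mt-nd3, above the 2.94% to 3.75% of the other 6 libraries.

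The nuclear members with the smallest unadjusted p were Ndufa4l2, Ndufb2 and Ndufa11. Ndufa4l2 had -0.80 ± 0.30 (edgeR adjusted p = 0.516), and its groups overlapped. Ndufb2 had -0.18 ± 0.083 (edgeR adjusted p = 0.575) and Ndufa11 -0.16 ± 0.074 (edgeR adjusted p = 0.593), both wholly below the controls in CPM, as 6.78% of all genes were. In FPKM both overlapped the controls, and no member lay wholly below them, compared with 2.66% of all genes. After rescaling to TPM the Ndufa11 estimate was 0.023, on a scale that moved the median of all genes by 0.17. Mt-nd3 was 1 of 2 members wholly above the controls in CPM, compared with 6.34% of all genes. In FPKM Mt-nd3 and 9 nuclear members did so, compared with 14.3% of all genes. Of the control genes of mitochondrial expression 3 were at an unadjusted p under 0.05. Esrra was at 0.34 ± 0.083 (edgeR adjusted p = 0.469, DESeq2 adjusted p = 0.0335), the only one of the 24 that DESeq2 called. Hsd17b10, a subunit of mitochondrial RNase P, had 0.18 ± 0.076 (edgeR adjusted p = 0.562) and Pprc1 -0.23 ± 0.083 (edgeR adjusted p = 0.512). Of the assembly factors 2 were under that p, Acad9 at 0.33 ± 0.12 (edgeR adjusted p = 0.512) and Timmdc1 at -0.28 ± 0.12 (edgeR adjusted p = 0.547).

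In treated against control rats the medians of the cell markers were 0.66 for skeletal muscle and 1.20 for adipocytes, higher for 14 of 14 and 10 of 10 markers. They were -0.52 for erythroid cells, -0.65 for osteoblasts and -1.06 for chondrocytes, lower for 11 of 11, 9 of 9 and 8 of 8. They were 0.27 for neutrophils, 0.031 for B lymphocytes and -0.11 for macrophages and osteoclasts. Again edgeR called no marker at an adjusted p of 0.05, while DESeq2 called 3 erythroid and 2 adipocyte markers. Beyond the fit with the muscle score, the part of these cells in the complex I differences was not tested.

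Nuclear and mitochondrially encoded members were then set against each other directly. The ratio of their summed FPKM was 4.22, 3.98 and 4.47 in controls, 4.46, 4.56 and 5.08 in ovariectomized rats and 4.48, 4.29 and 5.05 in treated rats. Group means were 4.22 ± 0.245, 4.70 ± 0.333 and 4.61 ± 0.400 (SD, n = 3). The groups overlapped in all 3 comparisons. On the log2 scale the means were 2.08 ± 0.0838, 2.23 ± 0.1005 and 2.20 ± 0.123 in the same order. In treated replicate 1 the nuclear sum holds Ndufa1 at 0.0001 FPKM, against 64.5 to 119 FPKM in the other libraries. This raises the ratio of that library.

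The nuclear members varied little among replicates. The median over members of the within-group SD of log2 CPM was 0.0968 for 35 nuclear members without Ndufa1 and 0.168 for the mitochondrially encoded ones. It was 0.185 over all genes tested and 0.172 over the 10316 genes whose mean CPM lay in the range of the nuclear members. That range reaches down to Ndufa4l2 and takes in most of the 13886 genes, so the 10316 are not closely matched in level. Mitochondrially encoded members took 0.793% to 1.20% of all counts, and nuclear members 0.159% to 0.196%. Both extremes of the high end came from ovariectomized replicate 3.

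Some subunits were split over several rows, and this changed what 1 row shows. Ndufa1 (X chromosome, 124513269 to 124516705 in the table), a small membrane-arm subunit, had 0 counts in treated replicate 1 and 899 to 1632 counts in the other 8 libraries. A second row, LOC108348144 (X chromosome, 123803103 to 123806777), which the table also describes as this subunit, held 1726 counts in treated replicate 1 and 1072 to 1842 elsewhere. Summed, the rows came to 1726 counts in treated replicate 1 and 2534 to 2904 in the others, or 29.9 CPM against 39.8 to 46.3 CPM. The log2 fold change of treated against ovariectomized rats was -0.30 ± 1.20 for the Ndufa1 row and -0.21 ± 0.14 for the summed rows (edgeR adjusted p = 0.944). Without treated replicate 1 the Ndufa1 row gave 0.29. Reads that fit both rows cannot be assigned to 1 of them with certainty.

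**Figure D5:**
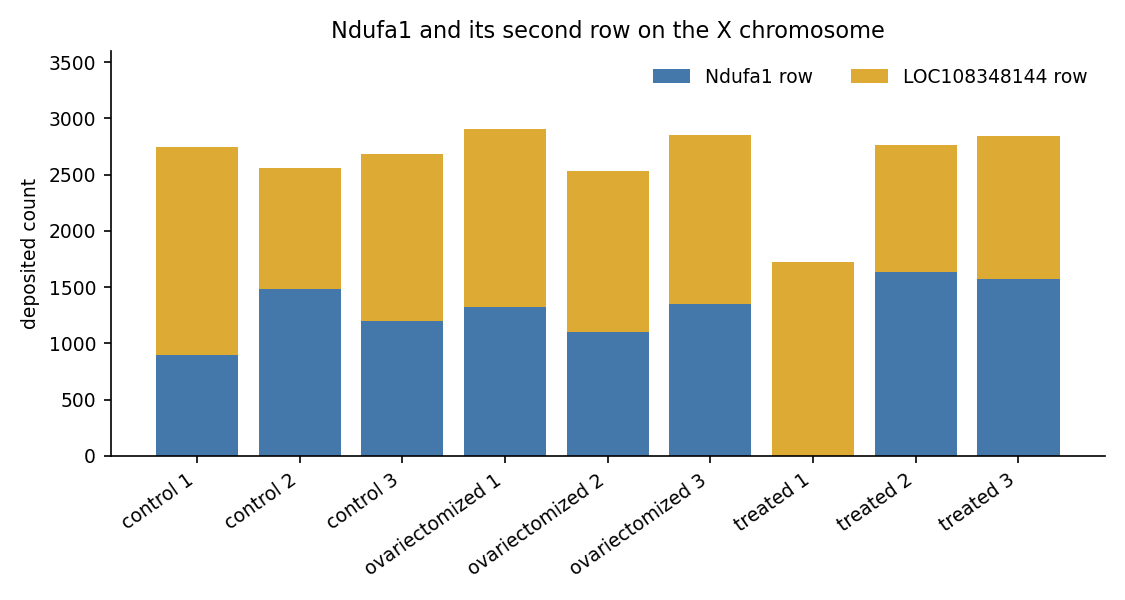
Deposited counts of the Ndufa1 row and of the row LOC108348144 in each library, stacked. In treated replicate 1 the Ndufa1 row holds 0 counts and the other row 1726, and the stack there is lower than the 2534 to 2904 of the other libraries.

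Another such row was LOC684509 (chromosome 2, 210115784 to 210116038 in the table), described in the table as similar to the B9 subunit, the small membrane-arm protein that Ndufa3 encodes. It held 217, 298 and 343 counts in controls, 491, 379 and 352 in ovariectomized rats and 132, 158 and 147 in treated rats, with the treated libraries lowest throughout. The log2 fold change of treated against ovariectomized rats was -1.51 ± 0.20, with an edgeR adjusted p of 0.581 and a DESeq2 adjusted p of 6.43e-08, and of treated against control rats -0.96 ± 0.20, with adjusted p of 0.413 in edgeR and 0.00473 in DESeq2. The Ndufa3 row itself was at 1267, 816 and 907 counts in controls, 1256, 1101 and 1252 in ovariectomized rats and 1153, 1098 and 1341 in treated rats. This row lies outside the symbol rule and was chosen after its values were seen. Where reads fit both rows, their split between them is uncertain.

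The subunit Ndufs6 was represented by 2 rows outside the symbol rule, LOC100912599 and LOC679739, with means of 31.1 and 33.1 FPKM, within the 26.4 to 84.8 FPKM of the N module members. Their log2 fold changes in ovariectomized against control rats were 0.37 ± 0.20 and -0.056 ± 0.16, and neither was called by edgeR (adjusted p of 0.997 and 0.9998). Ndufab1, the acyl carrier protein present in both arms, was at 7.85 FPKM, with 0.10 ± 0.14, -0.26 ± 0.14 and -0.16 ± 0.14 in the 3 comparisons and edgeR adjusted p of 0.9998, 0.929 and 0.776. No row carried the symbol Ndufb1 or Ndufa10.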

How the data were processed

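The deposited table gives, per the file headers, a whole-number count and an FPKM value per gene and library; FPKM is scaled by the authors for length and depth. Per the submitters' processing notes the tools were fastp, HISAT2 and StringTie. The sources used here give no versions, no genome build and no account of how the counts were made, and the counts were treated as unscaled reads. A count of 0 has an FPKM fill value of 0.0001.

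Counts of the 13886 genes that averaged 1 FPKM or more were fitted with edgeR 4.0.16 (TMM, quasi-likelihood, all 9 libraries, Benjamini-Hochberg adjustment, threshold 0.05), with DESeq2 1.42.0 and limma 3.58.1 as alternatives, under R 4.3.3. The fit was also tested on simulated data. Settings that left out a library of the group not compared bear little on that comparison. FPKM served for levels between genes and CPM within a gene. Fold changes were given for every mitochondrially encoded member and, in each comparison, for the 3 nuclear members with the smallest unadjusted p; levels for the nuclear core, the highest and lowest members, Ndufa4 and Ndufa4l2. Genes of the lists of assembly factors, other mitochondrially encoded mRNAs and control of mitochondrial expression were named where edgeR's unadjusted p was under 0.05, Mt-co3 by that of DESeq2, and cell markers were given as medians and counts. A result that this rule names is not reported here, though counts and medians over the members include every member. Members, lists and markers were chosen with earlier results of these data known. Precision is limited by the number of libraries, not by depth: every pair differed by more than sampling noise, so none was counted as a duplicate. Figures were drawn with matplotlib 3.10.9 under Python 3.11.15.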

Additional observations from a re-analysis of the deposited data

How the results depend on the processing

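No member passed an adjusted p of 0.05 under any alternative, except Mt-nd3 in treated against control rats with DESeq2 (1 member, log2 fold change 0.49). The alternatives were other normalizations, filters and tools, the 2 groups alone, a replicate block, a muscle covariate and each library left out. Over all genes, edgeR and limma called from 0 to 4 under these, and DESeq2 called 59, 38 and 153 in the 3 comparisons. So few calls in edgeR and limma left little room for any member to pass. Merging Ndufa1 with LOC108348144, and leaving treated replicate 1 out of Ndufa1, were chosen after seeing the data. The labels do not say whether replicate numbers pair the samples. Correlations of same-numbered libraries ran from -0.13 to 0.18, 1 of 9 above 0.1. Those of other pairs ran from -0.17 to 0.14, 2 of 18 above 0.1. Such correlations cannot exclude a pairing or a shared batch. With the replicate block, members past the adjusted threshold stayed at 0 in all 3 comparisons. Members at an unadjusted p under 0.05 numbered 4 (ovariectomized and control rats), 3 (ovariectomized and treated) and 2 (control and treated). They numbered 7, 4 and 1 with the replicate block, 0, 0 and 4 with the muscle covariate, 15, 1 and 17 with TPM, 9, 3 and 5 with limma on FPKM at either pseudocount and 2, 3 and 1 in fits of the 2 groups alone. In treated against control rats the count was 1 with a minimum of 5 FPKM. Leaving out each library in turn gave 1 to 7, 0 to 4 and 1 to 6. The first count was 7 and 1 without ovariectomized replicates 1 and 3, and 2 without control replicate 1 or 3. Without ovariectomized replicate 3 the second count was 0, and leaving treated replicate 2 out made it 1. The third was 6 without control replicate 1, and 1 without control replicate 3 or treated replicate 2 or 3. In the main fit 5.05%, 5.20% and 8.81% of all genes were under that p. Their shares under the alternatives are not given here, so these counts cannot be read as particular to complex I. With TPM and limma on FPKM the median of all genes moved too.

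Nuclear medians moved with scale, as did the median of all genes. For ovariectomized against control rats, 0.10 became 0.15 with limma at either pseudocount (1 or 0.1) and 0.21 with TPM. For treated against ovariectomized rats, -0.10 became -0.057 and -0.058 with pseudocounts of 1 and 0.1, and -0.035 with TPM. For treated against control rats, 0.027 became 0.11 and 0.12 with pseudocounts of 1 and 0.1, and 0.20 with TPM, where the mitochondrial median was 0.28. TPM moved the median of all genes by 0.10, 0.055 and 0.17 in these comparisons, and relative to it the nuclear medians were 0.11, -0.090 and 0.039.

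With the muscle covariate the nuclear median was 0.00025 and the mitochondrial one 0.051 in ovariectomized against control rats, and they were -0.016 and -0.0048 in treated against control rats. The log2 fold changes it reversed were, in ovariectomized against control rats, Mt-nd4 (-0.060), Mt-nd2 (-0.0072), Mt-nd4l (-0.030) and Ndufs3 (-0.0094). In treated against ovariectomized rats they were Mt-nd6 (0.072), Mt-nd4 (0.018) and Mt-nd4l (0.025), and in treated against control rats Mt-nd4 (-0.041), Mt-nd1 (-0.013), Mt-nd2 (-0.040) and Mt-nd4l (-0.0048). TPM reversed Mt-nd6 in treated against ovariectomized rats (0.022) and Ndufa11 in treated against control rats (0.023).

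Leaving out each library in turn gave nuclear medians of 0.053 to 0.11 in ovariectomized against control rats, -0.12 to -0.061 in treated against ovariectomized rats and 0.0086 to 0.048 in treated against control rats. Mitochondrial medians were 0.14 to 0.34, -0.24 to -0.027 and -0.0073 to 0.20. In treated against ovariectomized rats this reversed Mt-nd6 (range -0.14 to 0.084) and Mt-nd3 (-0.038 to 0.15). In treated against control rats it reversed Mt-nd4 (-0.044 to 0.19), Mt-nd1 (-0.0073 to 0.11), Mt-nd2 (-0.040 to 0.17) and Mt-nd4l (-0.059 to 0.20). Ndufa1 without treated replicate 1 gave 0.29 and 0.38 against ovariectomized and control rats. Of 604 values for named genes 580 kept direction and side of a threshold few could cross, a weak check. The causes were not tested.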
